A study of Mus musculus with 7 samples.

Results

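Pycard encodes ASC, the adaptor protein of inflammasomes. Its mRNA level was examined in growing mouse oocytes together with that of 9 NLRP genes expressed in oocytes, namely Nlrp14, Nlrp9a, Nlrp9b, Nlrp9c, Nlrp4a, Nlrp4b, Nlrp4c, Nlrp4e and Nlrp4g. These 10 genes were taken by symbol from the 22877 rows of the authors' expression table. The 9 NLRP genes were taken as oocyte-expressed relatives of the sensors that ASC binds. Other NLRP genes expressed in these oocytes, among them Nlrp5, Nlrp4f and Nlrp2, are not among the 10 and are given further below. Pycard was chosen by its genotype means, the Mfn1-/- mean being far above the WT mean. The contrast between the genotypes of Pycard is therefore a description of why it was chosen and carries no test.

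The libraries came from the oocytes of secondary follicles of 8-week-old C57BL/6J mice, with 4 libraries from WT littermates and 3 from Mfn1-/- mice, whereas the design text and the paper both give n = 3 per genotype. The Mfn1-/- mice carried floxed Mfn1 alleles and a ZP3-Cre transgene, in which the Zp3 promoter limits Cre to growing oocytes, so that Mfn1 was lost from the oocyte and not from the surrounding somatic cells. Which of the floxed allele and the transgene the WT littermates carried is not given in the sources used here. Each library was made from poly(A) cDNA of 5 pooled oocytes by Smart-Seq2, an amplification protocol for very small amounts of RNA. The table holds 1 mean of normalized counts per genotype and gene, so every level below is the authors' mean, with no spread between libraries and no depth. The authors' own p-values were not used, so no difference below was tested, and nothing says whether the libraries of a genotype came from separate animals.

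Inflammasomes are cytosolic complexes in which a sensor, often of the NLRP family, recruits ASC through pyrin domains, and ASC in turn recruits caspase-1. Caspase-1 then cleaves gasdermin D and the precursors of interleukin-1 beta and interleukin-18. In rodents the NLRP family has also expanded into a group of genes expressed mainly in oocytes and early embryos. Some of these, such as Nlrp5 and Nlrp2, are maternal-effect genes whose products belong to the subcortical maternal complex, an assembly beneath the oocyte membrane that early embryos require.

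The targeted gene was low in the knockout, since the Mfn1 mean was 0.0577 normalized counts (Mfn1-/-) and 0.616 (WT), a log2 difference of -2.18. Throughout, a log2 difference is that of the Mfn1-/- mean minus the WT mean after 0.1 was added to each, which understates the difference of genes with low means. A gene was counted as past 2-fold when this value was 1 or more, or -1 or less. Oocyte markers with high means were present in both genotypes, and the 12 markers summed to 1991 normalized counts (Mfn1-/-) and 1755 (WT). The 10 measured granulosa cell markers summed to 2.30 and 1.65, of which Inha gave 1.87 and 0.954, while others such as Hsd17b1 (0.0412 and 0.152) had lower Mfn1-/- means. The median log2 difference was 0.04 over all rows and 0.16 over the 6255 rows with a mean of at least 1, so most expressed genes lay slightly higher in the Mfn1-/- column.

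The annotation places 9 of the 10 genes on mouse chromosome 7 (GRCm38, GENCODE M21). From low to high coordinate these are Nlrp4c (chr7:6045161-6105150, plus strand), Nlrp4b (chr7:10687789-10730168, plus), Nlrp9b (chr7:19991465-20073306, plus), Nlrp4e (chr7:23301192-23362277, plus), Nlrp9c (chr7:26322473-26403700, minus), Nlrp4a (chr7:26435113-26476142, plus), Nlrp9a (chr7:26535023-26575615, plus), Nlrp14 (chr7:107166990-107198102, plus) and Pycard (chr7:127989708-127993867, minus). Nlrp4g lies on chromosome 9 (chr9:124348872-124356970, plus) and is annotated as a transcribed unprocessed pseudogene. The other 9 genes are protein-coding. Among genes with a row in the expression table, Nlrp9c, Nlrp4a and Nlrp9a are direct neighbours, with gaps of 31412 and 58880 bases between them.

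The upstream sequence of Pycard is given first, because it is the gene chosen by its genotype means. The 250 bases before its RefSeq transcription start (chr7:127993868-127994117, minus strand, GRCm38.p6) are printed 5′ to 3′ with E-boxes in capitals. An E-box, here CANNTG on either strand, is the motif read by basic helix-loop-helix factors, among them the oocyte factor FIGLA.
Pycard: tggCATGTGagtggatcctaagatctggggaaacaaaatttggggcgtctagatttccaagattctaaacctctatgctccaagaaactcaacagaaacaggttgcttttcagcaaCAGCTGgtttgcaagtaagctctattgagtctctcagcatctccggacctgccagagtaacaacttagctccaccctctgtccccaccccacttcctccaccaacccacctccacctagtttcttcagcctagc
The window held 2 E-boxes, whose first bases lie at positions -247 and -134 relative to the start, and 72.3% of the 32851 RefSeq promoter windows (250 bases before to 50 after a start) hold at least 1. It held no CCAAT box and no NOBOX element.

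Some promoter windows of the NLRP genes resembled each other within a subfamily. Windows were found for 8 of the 10 genes, with 2 windows each for Nlrp4a and Nlrp4b. The second Nlrp4a window, the first Nlrp4b window and the Nlrp4c window aligned with one another over 206 to 227 bases at 79.0% to 81.1% identity. The longest run that all 3 hold unchanged is shown in capitals in the following stretches, because it joins a CCAAT box directly to an E-box.
Nlrp4a: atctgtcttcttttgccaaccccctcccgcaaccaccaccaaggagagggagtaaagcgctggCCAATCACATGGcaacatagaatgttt
Nlrp4b: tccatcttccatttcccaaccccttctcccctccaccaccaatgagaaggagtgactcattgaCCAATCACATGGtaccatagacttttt
Nlrp4c: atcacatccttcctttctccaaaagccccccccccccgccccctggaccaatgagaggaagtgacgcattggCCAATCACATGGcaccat
The stretches are chr7:26435501-26435590, chr7:10687676-10687765 and chr7:6045071-6045160, all on the plus strand of GRCm38.p6. The first lies in the opening intron of the longest Nlrp4a transcript and directly before a second transcription start, and the others lie before the first exon. The run of 12 bases was found, on either strand, in 7 of the 32851 windows (0.0213%), which belong to 6 genes, the 3 named here and Dcxr, Oscp1 and Tmem52b. The run and the CCAAT box were chosen after the sequences had been seen.

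The Nlrp9a and Nlrp9c windows aligned over 172 bases at 97.1% identity, the closest of the long alignments between genes. The Nlrp9b window aligned with theirs over no more than 13 bases, and the Nlrp4e window with those of the other Nlrp4 genes over no more than 37. Both stretches are printed with their CCAAT boxes in capitals, since 3 such boxes recur in each. The CCAAT box is the motif bound by the factor NF-Y.
Nlrp9a: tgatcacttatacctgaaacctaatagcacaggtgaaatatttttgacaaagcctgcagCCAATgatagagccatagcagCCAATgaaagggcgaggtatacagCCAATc
Nlrp9c: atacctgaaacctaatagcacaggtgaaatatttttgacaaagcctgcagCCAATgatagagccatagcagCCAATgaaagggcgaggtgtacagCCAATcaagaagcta
These are chr7:26534913-26535022 on the plus strand and chr7:26403736-26403845 on the minus strand, both before the first exon. At least 1 CCAAT box on either strand was present in 37.4% of all windows and at least 3 in 3.37%, and the windows of Nlrp9a, Nlrp9c and Nlrp4c each held 3. The NOBOX element, TAATTG or TAATTA on either strand, is read by the oocyte homeobox factor NOBOX and was present in 12.4% of all windows. Nlrp9a held 4 of them and Nlrp9b held 1. The 7-letter core of the amino acid response element, TGATGCA, through which ATF4 acts, was in none of the members' windows and in 3.15% of all windows. A match or its lack describes these letters in these windows alone.

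**Figure D1:**
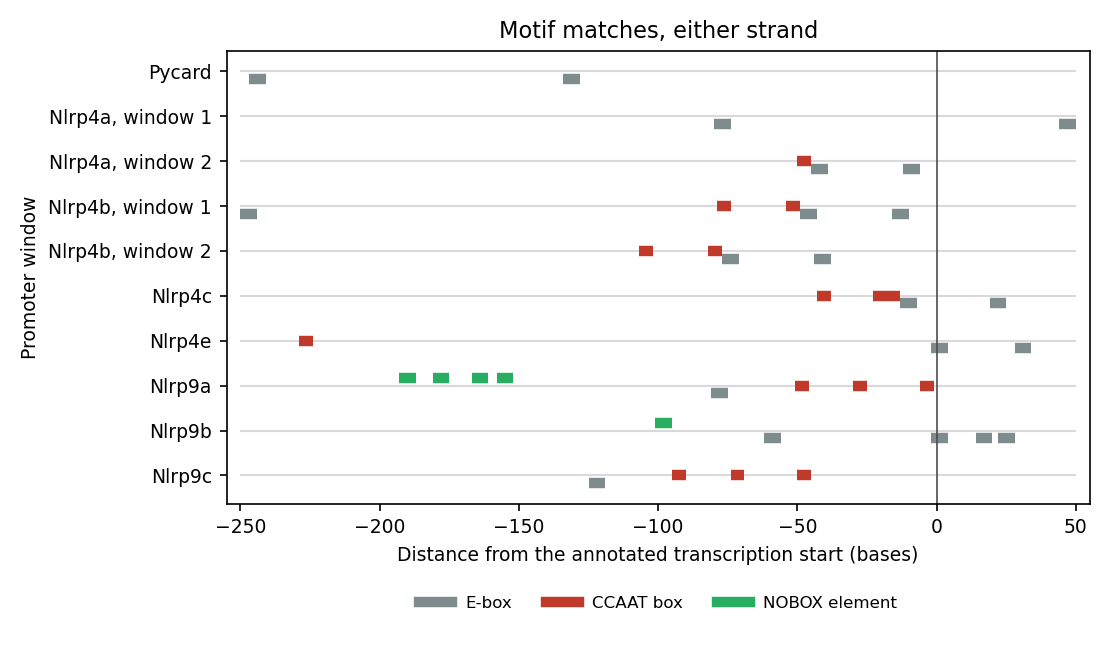
Each row is a RefSeq promoter window of Pycard or an NLRP gene, the horizontal axis is the distance in bases from the annotated transcription start, and coloured blocks mark motif matches on either strand. Nlrp9a and Nlrp9c each show 3 CCAAT boxes in red, Nlrp9a shows 4 NOBOX elements in green, and Pycard shows only its 2 E-boxes in grey.

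The genotype means of the adaptor gene lay far apart and those of the NLRP genes close together. For Pycard the means were 1.9 normalized counts (Mfn1-/-) and 0.0343 (WT), which is a ratio of 55.4 and a log2 difference of 3.90. The WT mean was 3.43 times the lowest mean in the table, which is 0.01, so its value was near the floor, although 25.4% of rows had a lower WT mean. It ranked 17057 of 22877 rows there and 4775 in the Mfn1-/- column.

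Pycard was the only one of the 10 genes past 2-fold. For comparison, 4.89% of all rows were past 2-fold higher in Mfn1-/- oocytes, 2.76% were past 2-fold lower, and 7.65% were past it in either direction. After subtraction of the median of the rows with a mean of at least 1, 811 rows were higher and 926 lower, in place of 1118 and 631. After both columns were scaled to the same sum, 887 were higher and 757 lower, so the balance of directions over all rows depends on the scaling. The log2 difference of Pycard stayed at 3.73 and 3.77 under these scalings.

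Among the 3783 rows whose mean was within 2-fold of that of Pycard, 99.9% had a lower log2 difference, and 14.4% were past 2-fold in either direction. Over all rows, 12 (0.0525%) had a log2 difference at least as large as that of Pycard, which is itself among them. Of the 5821 rows with a WT mean no higher than that of Pycard, Pycard included, 2 (0.0344%) had an Mfn1-/- mean at least as high. These shares place Pycard in the table and are not evidence for its difference, since it was chosen for it.

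The deposited means do not show how many Mfn1-/- libraries held Pycard reads. The sum over the 7 libraries was 5.85 normalized counts, and 1 library at 5.7 with the other Mfn1-/- libraries at 0 would give the same mean as 3 libraries at 1.9. The genes nearest to Pycard in the plane of the log2 genotype means were Gm5699 (1.9 in Mfn1-/- and 0.0434 in WT oocytes, distance 0.0946), the keratin gene Krt79 (2.15 and 0.0362, distance 0.171) and Gm13040 (2.11 and 0.0432, distance 0.171). This likeness rests on 2 values per gene.

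**Figure D2:**
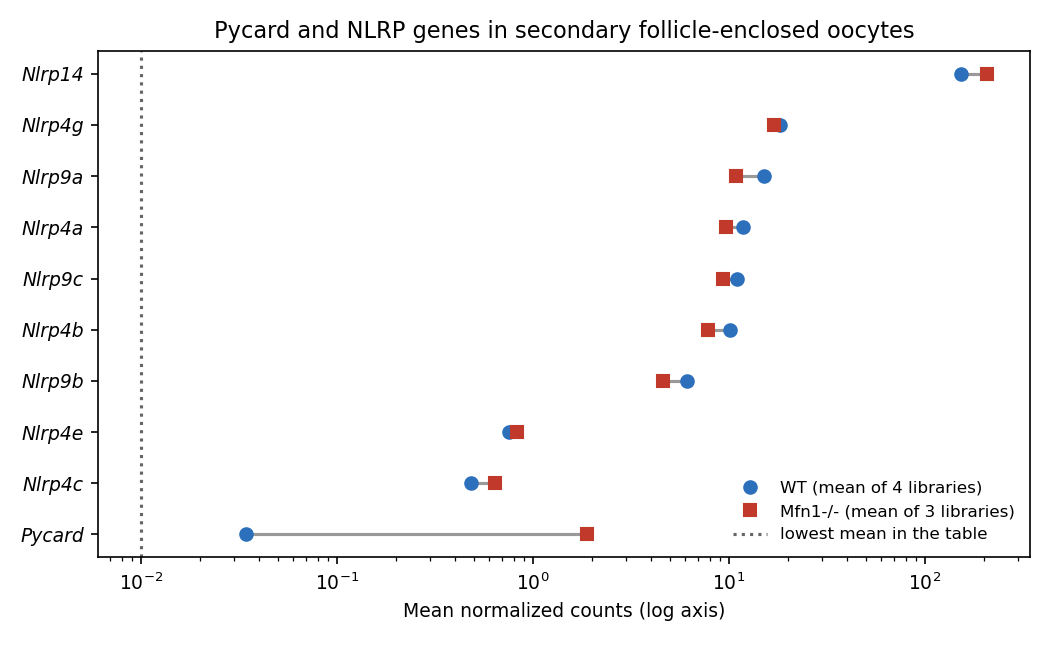
Mean normalized counts on a log axis for each of the 10 genes, with WT as blue circles (authors' mean of 4 libraries) and Mfn1-/- as red squares (authors' mean of 3 libraries); the dotted line marks the lowest mean in the table, 0.01, and no error bars can be given. Pycard lies at 0.0343 in WT and 1.9 in Mfn1-/- oocytes, while the markers of each NLRP gene lie close together.

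Nlrp14, a germ cell gene whose maternal product is needed by the early embryo, had by far the highest mean of the 10 genes. Its mean was 209 normalized counts (Mfn1-/-) and 154 (WT), a ratio of 1.36 and a log2 difference of 0.44. It ranked 102 of all rows in Mfn1-/- and 151 in WT oocytes. Nlrp14 made up 77.4% of the summed means of the 9 NLRP genes in Mfn1-/- oocytes and 67.6% in WT oocytes. Of the 237 rows of like mean, 86.5% had a lower log2 difference.

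The 3 Nlrp9 genes all had lower means in the Mfn1-/- column. Nlrp9a had means of 10.9 (Mfn1-/-) and 15.2 (WT) normalized counts, a ratio of 0.717 and a log2 difference of -0.48. Nlrp9b, whose product is known in the intestine as a sensor of viral RNA that signals through ASC, had means of 4.62 and 6.14, a log2 difference of -0.40. Nlrp9c had means of 9.39 and 11, a log2 difference of -0.23. Together they summed to 24.9 normalized counts (Mfn1-/-) and 32.3 (WT), a ratio of 0.770. All 3 lay low among rows of like mean, since 93.1%, 88.1% and 85.0% of such rows had a higher log2 difference than Nlrp9a, Nlrp9b and Nlrp9c. A lower mean may reflect fewer oocytes that express a gene or less RNA per oocyte, and bulk libraries of pooled oocytes cannot tell these apart.

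The 5 Nlrp4 genes did not share a direction. Nlrp4a had means of 9.73 (Mfn1-/-) and 11.9 (WT), a log2 difference of -0.29, and Nlrp4b had means of 7.87 and 10.2, a log2 difference of -0.37. The pseudogene Nlrp4g had means of 17.1 and 18.2, a log2 difference of -0.09. Nlrp4c and Nlrp4e were measured at much lower levels. Nlrp4c had means of 0.642 and 0.485, a log2 difference of 0.34, and Nlrp4e had means of 0.831 and 0.758, a log2 difference of 0.12 that turned to -0.046 after subtraction of the median of the rows with a mean of at least 1. Among rows of like mean, 87.8%, 89.7% and 78.1% had a higher log2 difference than Nlrp4a, Nlrp4b and Nlrp4g. For Nlrp4c this share was 32.3%, and Nlrp4e lay near the middle of its rows. A low standing among such rows was therefore not confined to the Nlrp9 genes. The Nlrp4 genes summed to 36.2 normalized counts (Mfn1-/-) and 41.5 (WT), a ratio of 0.871.

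Of the 9 NLRP genes, 3 had a higher Mfn1-/- mean and 6 a lower one, or 2 and 7 after that subtraction. Of all rows, 56.7% were above 0 and 42.9% below it, and of the rows with a mean of at least 1, 33.7% were below it. The median log2 difference of the 9 NLRP genes was -0.23, beside 0.04 over all rows and 0.16 over the rows with a mean of at least 1. Without either scaling, all 9 lay within 0.5 of 0 on the log2 scale, as did 75.9% of all rows and 70.4% of the rows with a mean of at least 1. After the median subtraction Nlrp9a, Nlrp9b and Nlrp4b lay outside this range, at -0.64, -0.57 and -0.53. With both columns scaled to the same sum, Nlrp9a and Nlrp9b lay outside it, at -0.61 and -0.53. The summed mean of the 9 genes was 270 normalized counts (Mfn1-/-) and 228 (WT), a ratio of 1.19, which is set by Nlrp14. Without it the other 8 summed to 61.1 and 73.9, a ratio of 0.827. The sum and the median of the NLRP genes thus had opposite directions.

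**Figure D3:**
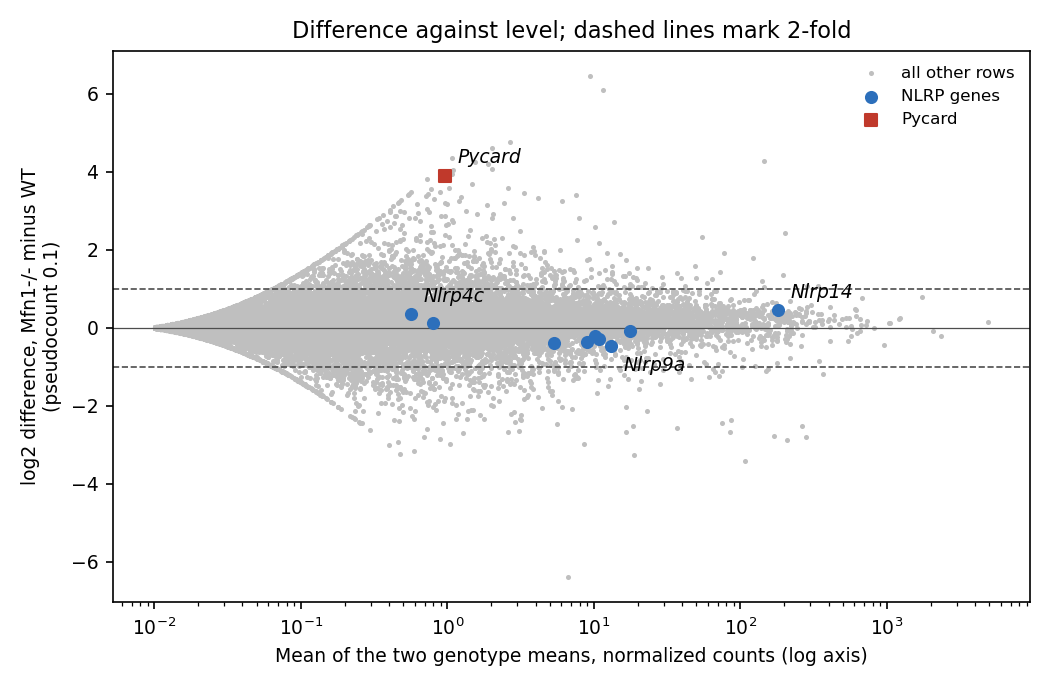
The log2 difference between genotypes (Mfn1-/- minus WT, pseudocount 0.1) against the mean of the genotype means in normalized counts on a log axis, with 1 grey point for each of the other rows, NLRP genes in blue, Pycard as a red square and dashed lines at 2-fold. Pycard lies at 3.90, near the upper edge of the cloud at its level, whereas the 9 NLRP genes lie between -0.48 and 0.44.

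Levels of different genes were compared after division by exonic length, although the scale of the authors' normalization is not stated and may already allow for length. In WT oocytes Nlrp14 came first with 43.5 normalized counts per kilobase, followed by Nlrp4g (8.82), Nlrp9a (4.36), Nlrp4a (2.46), Nlrp4b (2.27), Nlrp9c (1.85) and Nlrp9b (1.65). Far below these stood Nlrp4e (0.223), Nlrp4c (0.121) and Pycard (0.00903). Without division by length Nlrp9c and Nlrp4b changed places. In Mfn1-/- oocytes Pycard, at 0.5 per kilobase, came above Nlrp4e (0.244) and Nlrp4c (0.160), and the order of the others was as in WT oocytes. With no spread between libraries, it cannot be said which neighbours in these orders differ.

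The NLRP members resemble each other closely within a subfamily, which bears on how surely their reads can be assigned. Over aligned coding bases, Nlrp4c and Nlrp4e were 93.9% identical and Nlrp9a and Nlrp9c were 87.7% identical. Nlrp4b was the most distant Nlrp4 gene, at 78.1% to 79.1% identity with Nlrp4a, Nlrp4c and Nlrp4e. Between an Nlrp4 and an Nlrp9 gene, identity was 58.1% to 62.7%, and Nlrp14 was 59.8% to 63.1% identical to the others. The opening 75 coding bases of the Nlrp9 genes, the length of 1 read, show how few bases can separate them. They start at the ATG and are read from the annotated transcripts, with capitals marking bases that differ from Nlrp9a.
Nlrp9a: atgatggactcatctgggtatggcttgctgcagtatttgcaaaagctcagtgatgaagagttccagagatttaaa
Nlrp9b: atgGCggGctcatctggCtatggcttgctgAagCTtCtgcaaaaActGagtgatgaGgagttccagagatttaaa
Nlrp9c: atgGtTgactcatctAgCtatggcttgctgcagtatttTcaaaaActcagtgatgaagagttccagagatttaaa
Nlrp9b differs from Nlrp9a at 11 of these bases and Nlrp9c at 6.

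**Figure D4:**
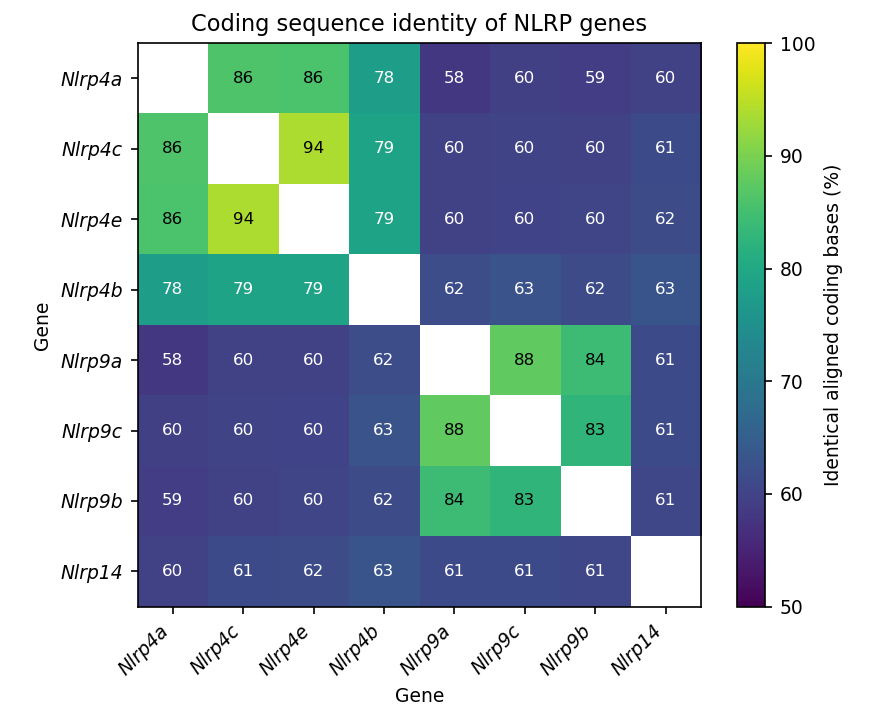
Percent of identical bases over the aligned coding sequence for each pair of the 8 coding NLRP genes, from 50% (dark) to 100% (yellow). The Nlrp4 genes form 1 bright block that reaches 93.9% for Nlrp4c and Nlrp4e, the Nlrp9 genes form another that reaches 87.7%, and Nlrp14 stays at or below 63.1% with all others.

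Exact sharing at read length was small for most members. The share of a gene's 75-base transcript windows that also occur in a transcript of another gene was 0% for Nlrp14 and Nlrp4b, 0.31% for Nlrp4a, 0.805% for Nlrp9c, 1.98% for Nlrp9a, 2.37% for Nlrp4g, 3.08% for Nlrp4c and 4.25% for Nlrp9b. The longest run of identical coding bases was 129 for Nlrp9a and Nlrp9b and 120 for Nlrp4c and Nlrp4e, both longer than a read. By the paper's methods the 75-base reads came in pairs, whereas these shares and runs take each read alone. Nlrp4e shared the most, at 20.1%, mainly with the gene models Gm8486, Gm16443, Gm8685, Gm8728 and Gm4541. Of these, Gm8685 had no row, and the highest mean of the others was 0.126 normalized counts, that of Gm4541 in WT oocytes. The values of Nlrp4e, and to a lesser degree those of Nlrp4c and Nlrp9b, are therefore uncertain. The values of Nlrp14 and Nlrp4b rest on sequence that no other annotated transcript holds at this length.

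Pycard shared 10.9% of its windows, all with Gm45205, a gene model on the opposite strand that overlaps 485 of its exonic bases. The Gm45205 mean was 0.0296 normalized counts (Mfn1-/-) and 0.01 (WT). Whether the authors counted reads by strand is not given in the sources used here, and without strand the reads of the overlap cannot be told apart. Gm15533, the nearest gene with a row at higher coordinates, had means of 0.0818 (Mfn1-/-) and 0.084 (WT) and a log2 difference of -0.02. Gm45205 and Gm15533 had means under 0.1 in both genotypes, where the added 0.1 leaves no room for a 2-fold difference on this scale. Their values therefore cannot show whether the difference of Pycard extended to them.

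Some genes lying within or beside an NLRP gene had larger log2 differences than the NLRP gene itself. Gm45379, a model inside an intron of Nlrp4b and on its strand, had means of 1.2 (Mfn1-/-) and 3.3 (WT), a log2 difference of -1.39, where Nlrp4b had -0.37. Krt8-ps, a processed pseudogene inside an intron of Nlrp4e, had means of 2.38 and 0.384, a log2 difference of 2.36, where Nlrp4e had 0.12. Its parent Krt8, a keratin of simple epithelia, had means of 1.68 and 0.245 and a log2 difference of 2.37, and reads of a processed copy and its parent can be confused. Ceacam20, 360 bases from Nlrp9b, had means of 0.889 and 2.02, a log2 difference of -1.10. Beside Nlrp4e, the maternal-effect gene Nlrp5 had means of 26.6 and 23.9, a log2 difference of 0.15. Nlrp9c, Nlrp4a and Nlrp9a, adjacent among the genes with a row, had log2 differences of -0.23, -0.29 and -0.48.

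The other genes of the inflammasome pathway were examined from a list by role. Of 48 listed inflammasome sensors, effectors and regulators, 34 had a row, none was past 2-fold higher and 1 was past 2-fold lower, against 4.89% and 2.76% of all rows. Their median log2 difference was 0.01, beside 0.04 over all rows. Of these, 5 sensors, 5 effectors and 6 regulators had means under 0.1 in both genotypes, where the added 0.1 leaves no room for a 2-fold difference on this scale.

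Among the sensors, 7 of 13 had a row, and Nlrp3, Nlrp1a, Nlrp1b, Nlrp10, Aim2 and Mefv had none. Nlrc4, which forms an inflammasome with NAIP proteins, was the gene past 2-fold lower, with means of 0.173 (Mfn1-/-) and 0.486 (WT) and a log2 difference of -1.10. Naip1, a partner of Nlrc4, had means of 0.403 and 0.854, a log2 difference of -0.92. Nlrc3, a regulatory NLR gene outside the sensor list, had means of 0.447 and 0.0931, a log2 difference of 1.50.

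Casp1 and the genes of the caspase-1 substrates gasdermin D and interleukin-18, Gsdmd and Il18, had means under 0.1 in both genotypes. Casp1, the protease that ASC recruits, had means of 0.0256 (Mfn1-/-) and 0.0217 (WT). Il18 had means of 0.0299 and 0.0323, Gsdmd had means of 0.0949 and 0.0312 with a log2 difference of 0.57, and Il1b had no row. Other effectors with wider roles had higher means. Casp8, an apoptotic caspase, had means of 0.886 and 1.34, a log2 difference of -0.55, and Myd88, the adaptor of Toll-like and interleukin-1 receptors, had means of 1.99 and 1.16, a log2 difference of 0.73. Ninj1, which drives the final rupture of dying cells, had means of 54.2 and 53.2. The 14 measured regulators had log2 differences from -0.56 to 0.79, with a median of 0.07. The lowest was that of Txnip, a thioredoxin-binding protein that can act on NLRP3, with means of 54.7 and 80.8. None of these differences was tested.

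**Figure D5:**
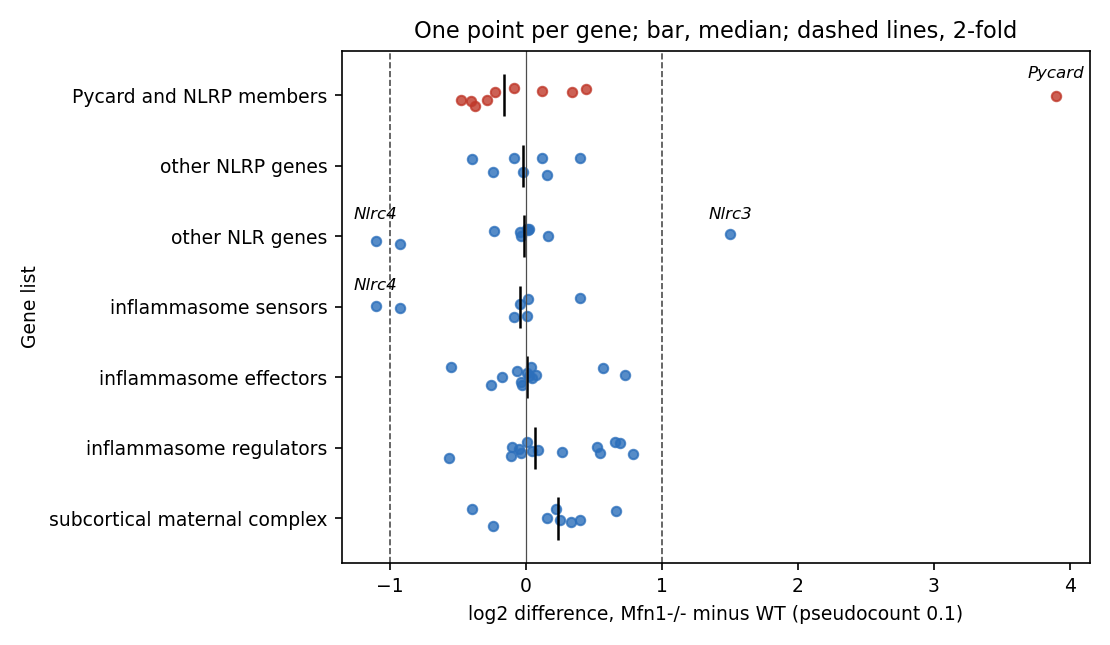
The log2 difference between genotypes (Mfn1-/- minus WT, pseudocount 0.1) for every gene with a row, 1 point per gene, by gene list; black bars are list medians and dashed lines mark 2-fold. Pycard is alone at 3.90, the NLRP genes lie within 0.5 of 0, and Nlrc4 (-1.10) and Nlrc3 (1.50) are the other points past 2-fold.

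Of the 12 further NLRP genes listed, 7 had a row and 0 were past 2-fold, against 7.65% of all rows, and 4 of the 7 had means under 0.1 in both genotypes, where this threshold cannot be reached. Nlrp5 and Nlrp4f, with means of 26.6 and 23.9 and of 18 and 21.3 (Mfn1-/- and WT), were abundant, as was Nlrp2 at 3.95 and 5.22. The log2 differences of Nlrp5, Nlrp4f and Nlrp2 were 0.15, -0.24 and -0.39, all within the range of the 9 members. All 8 genes of the subcortical maternal complex were measured and 0 were past 2-fold, against the same 7.65%. Their median log2 difference was 0.24, beside 0.16 over the rows with a mean of at least 1 and -0.23 for the 9 NLRP members. The non-NLRP subunits such as Ooep (1310 and 1120) and Padi6 (203 and 128) had higher Mfn1-/- means. Whether the NLRP genes and these subunits differ was not tested.

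ASC is abundant in myeloid and epithelial cells, so the markers of such cells are given beside Pycard. Of 12 macrophage markers 7 had a row, and their sums were 7.68 normalized counts (Mfn1-/-) and 0.894 (WT). Nearly all of this was Cd68, a lysosomal protein gene, with means of 7.58 and 0.672 and a log2 difference of 3.31. The other macrophage markers had means of at most 0.111 or no row. Mrc1 stood at 0.0273 and 0.111, Lyz2 at 0.01 and 0.0203, Itgam at 0.0109 and 0.01 and Csf1r at 0.0316 and 0.0426, and Ptprc, Adgre1, Cd14, Aif1 and Tyrobp had no row. Of 8 epithelial markers 6 had a row and summed to 3.07 and 1.02 normalized counts, with Krt8 and Upk3b (0.844 and 0.302, log2 difference 1.23) past 2-fold, against 7.65% of all rows. Epcam had means of 0.153 and 0.077. Krt18 had means of 0.0815 and 0.0163 and Krt7 had means of 0.0679 and 0.0194, under 0.1 in both genotypes. Cdh1 alone had a lower Mfn1-/- mean, at 0.247 and 0.364, a log2 difference of -0.42. It encodes E-cadherin, which the paper places in the oocyte. Of 8 neutrophil markers 2 had a row, the higher being Mpo at 0.171 and 0.204. The part of macrophages, neutrophils or epithelial cells in the Pycard value was not tested. Among oocyte markers, Sohlh1, a transcription factor gene of early oocytes, was past 2-fold, with means of 3.68 and 0.105 and a log2 difference of 4.20.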

How the data were processed

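Groups came from the sample labels. By the paper's methods, the authors' steps were adapter removal (Cutadapt), quality filtering (FASTX-Toolkit), STAR alignment to GRCm38/mm10, counting per gene and a DESeq2 comparison; the submitters' processing notes also list FastQC and name DESeq. Versions, annotation, strand setting and the normalization method are not given in the sources used here. The signal used is the authors' deposited mean of normalized counts per genotype; normalization can shift all genes together. The deposited p-value, FDR, ratio and fold-change columns were not used. The deposited totals equaled 3 Mfn1-/- and 4 WT libraries within 1% in 100% of rows; 0 per-sample columns were left unused, so the planned fit by library could not be made.

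Computed here were the log2 difference of the means (pseudocount 0.1), shares of rows past 2-fold, motif matches in RefSeq promoter windows, window sharing at 75 bases and pairwise alignments. Python 3.11.15, numpy 2.4.6, pandas 2.3.3, Biopython 1.88 and matplotlib 3.10.9 were used. The difference was first computed on WT means with set changes and no noise, which checks the arithmetic alone. Gene models are GENCODE M21. Members and lists were chosen with earlier results of these data known. Genes named are the members, Mfn1, adjoining genes (1 is not reported here), list genes past 2-fold with a mean of at least 0.1 in either genotype, Casp1, Il1b, Il18, Gsdmd, Nlrp3 and the 3 genes nearest to Pycard; other list genes named were chosen after their values were seen. Alternatives were other pseudocounts, thresholds, filters, scalings and window lengths.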

Additional observations from a re-analysis of the deposited data

How the results depend on the processing

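The log2 difference of Pycard was past 2-fold under all 6 other settings that gave it a value, from 1.49 with a pseudocount of 1 to 5.79 with none, and all 54 values of the NLRP genes stayed within 2-fold, from -0.64 to 0.44. Nlrp4e alone changed sign, to -0.046 after subtraction of the median of rows with a mean of at least 1. With rows limited to a mean of at least 1, Pycard was left out and 0 members were past 2-fold. Rows past 2-fold, higher and lower, numbered 1118 and 631 as reported, 2401 and 1521 with a pseudocount of 0.01, 210 and 111 with 1, 2920 and 1911 with none, 364 and 197 with a mean of at least 1, 2844 and 1575 at 1.5-fold and 333 and 152 at 3-fold. Inflammasome genes past the threshold numbered 1 as reported, 3 with a pseudocount of 0.01, 4 with none, 2 under either scaling, 6 at 1.5-fold and 0 with a pseudocount of 1, a mean of at least 1 or 3-fold. At 50 bases in place of 75, Nlrp4e shared 36.7% of its windows and Nlrp4c 10.7%. One of the 6 settings, subtraction of the lowest mean of 0.01, was chosen after seeing the data. Leaving out a library was not run, and depth limits cannot be given, since only genotype means were used. No paired analysis was possible because the table has 1 mean per genotype.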
